A study of Rattus norvegicus with 54 samples.

Results

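Ribosome biogenesis and RNA polymerase I genes were examined in the hearts of 54 male Wistar rats of a shift work experiment. Members were the rows of the filtered expression table with a symbol made of Nop, Utp or Rrp and a number, a symbol beginning with Polr1, or one of 12 further symbols (Gar1, Nhp2, Dkc1, Fbl, Ncl, Npm1, Bop1, Pes1, Mrto4, Imp3, Imp4 and Mphosph10). This gave 37 genes of 10257 rows, or of 9998 when copies of a symbol were counted once. The symbols were chosen by function, with earlier results of these data known. All rats were wildtype, 7 to 8 weeks old at the start, housed alone in 12 h of light and 12 h of dark for 5 weeks. C rats were left undisturbed with food ad libitum, W rats worked on weekdays during the light phase in a slowly rotating drum with food ad libitum, and WRF rats did the same work with food withheld while they worked. Hearts were taken on a free day at zeitgeber time (ZT, hours after lights on) 1, 5, 9, 13, 17 and 21 from 3 rats per group and time, 18 per group.

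Ribosomes are built in the nucleolus. RNA polymerase I transcribes the long precursor of the 18S, 5.8S and 28S rRNAs, small nucleolar ribonucleoproteins (snoRNPs) of the box C/D and box H/ACA kinds guide its methylation and pseudouridylation, and large assemblies of processing factors cut and fold it into the small and the large subunit. In the heart, ribosome production is known to rise during growth of cardiomyocytes, and it is known to be high in dividing cells of other tissues, such as activated lymphocytes.

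The promoters of these genes are shown because factors of growth control are known to bind many of them through the E-box, the site of Myc, and through the site of ETS family factors. Windows of 300 bases around the start (250 before, 50 from the start on; RefSeq, build GRCr8) were matched by symbol for 35 of the 37 genes. Both strands were searched. The E-box CACGTG was found in 11 of the 35 windows (31.4%), against 9.68% of 7756 windows of genes in the expression table and 6.65% of all 27457. The ETS motif CCGGAAG was found in 17 of 35 (48.6%), against 18.6% and 9.22%. Both motifs stood in 8 of 35 (22.9%), against 2.0% and 0.914%. The motifs do not overlap each other. The GC box GGGCGG was in 22 of 35 (62.9%), close to the 63.6% of table genes, and the palindromic NRF1 motif and the motif ACTACAA were in 1 and 2. Upstream stretches of 8 genes follow on the strand of the gene, 5′ to 3′, with E-box and ETS letters in capitals. The first 6 genes are among those called higher in WRF than in C rats below, and Imp4 and Utp18 are not.
Fbl, chr1:92597321-92597367, plus strand: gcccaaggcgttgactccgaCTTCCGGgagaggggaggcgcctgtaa
Gar1, chr2:221056773-221056822, minus strand: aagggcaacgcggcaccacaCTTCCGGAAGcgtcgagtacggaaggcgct
Nhp2, chr10:36377980-36378019, plus strand: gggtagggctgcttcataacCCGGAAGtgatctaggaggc
Pes1, chr14:83074276-83074321, plus strand: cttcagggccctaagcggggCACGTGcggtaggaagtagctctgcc
Polr1c, chr9:22233208-22233254, plus strand: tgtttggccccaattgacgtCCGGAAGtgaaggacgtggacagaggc
Rrp15, chr13:100830813-100830844, minus strand: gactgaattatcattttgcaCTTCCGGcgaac
Imp4, chr9:44149911-44149977, plus strand: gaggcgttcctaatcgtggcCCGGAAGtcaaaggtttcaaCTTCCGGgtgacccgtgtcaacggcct
Utp18, chr10:79335795-79335953, minus strand: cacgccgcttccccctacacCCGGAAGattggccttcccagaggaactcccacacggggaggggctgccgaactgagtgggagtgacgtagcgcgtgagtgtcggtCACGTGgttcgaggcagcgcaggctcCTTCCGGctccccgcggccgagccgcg
Gar1 carries the ETS letters in both directions as an overlapping pair, and Utp18 carries 2 ETS matches and 1 E-box in the stretch shown. The motifs did not sort the genes by their response. Of the 12 genes with a window that were called higher in WRF rats, 3 had an E-box and 5 an ETS motif, and of the 23 others 8 had an E-box and 12 an ETS motif. A match is a run of letters and not a measured binding site.

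Values are fpkm, fragments per kilobase of transcript scaled to the size of the library, so levels can be set side by side between genes. The 37 genes spanned a wide range, with group medians in C rats from 1.0 fpkm (Utp20) to 108 fpkm (Npm1). Every member was above 0 in every heart. The hearts expressed muscle creatine kinase, Ckm, at 981 to 2530 fpkm in C rats, as heart muscle does, except that 2 WRF libraries stood apart. In WRF51 (ZT9) Ckm was 31.5 fpkm, the lung epithelial marker Ager 1419 fpkm against 1.48 to 4.79 in C rats, and the summed level of 8 leukocyte and macrophage markers 3307 fpkm against 242 to 521. In WRF62 (ZT5) Ckm was 170 fpkm, the sum of 8 T cell markers 762 fpkm against 12.8 to 35.4 in C rats, the leukocyte sum 2865 fpkm, and the sum of 4 measured dividing-cell markers 166 fpkm against 19.9 to 40.4. W21 held 6 liver markers at 1758 fpkm against 29.8 to 222 in C rats. The 4 atrial markers varied widely in all groups, from 48.3 to 55788 fpkm in C (median 138), 45.2 to 62455 in W (median 317) and 60.9 to 54998 in WRF rats (median 1154). Results below are given with all rats and without WRF51, WRF62 and W21.

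These 2 WRF hearts were also the highest in ribosome biogenesis genes. For each rat, the ratio of every member to its median in C rats was taken on the log2 scale, and the median over the 37 genes was used to describe that rat. It ran from -0.28 to 0.21 in C rats, from -0.16 to 0.17 in W rats and from -0.07 to 1.5 in WRF rats. WRF62 was at 1.5, with 34 of the 37 genes above the highest C rat, and WRF51 at 0.86, with 30 genes above it. The other 16 WRF rats lay between -0.07 and 0.29 (median 0.14), 14 of them above 0, and overlapped both other groups. The sum of all fpkm in these 16 rats had a median of 561680 against 478799 in C rats. The cardiomyocyte marker sum had a median of 41379 against 36676 fpkm, and the endothelial marker sum 144 against 161 fpkm. The leukocyte sums of these 16 rats were 315 to 522 fpkm (median 397) against a median of 348 in C rats. Their T cell sums had a median of 24.7 against 19.5 in C rats and reached 47.1. The sum of 6 fibroblast markers had a median of 853 against 595 fpkm in C rats, and the atrial marker sum 1154 against 138 fpkm. Whether RNA of these cells had a part in the smaller differences of these 16 hearts was not tested. In whole hearts, more cells of a kind and more RNA per cell cannot be told apart.

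**Figure D1:**
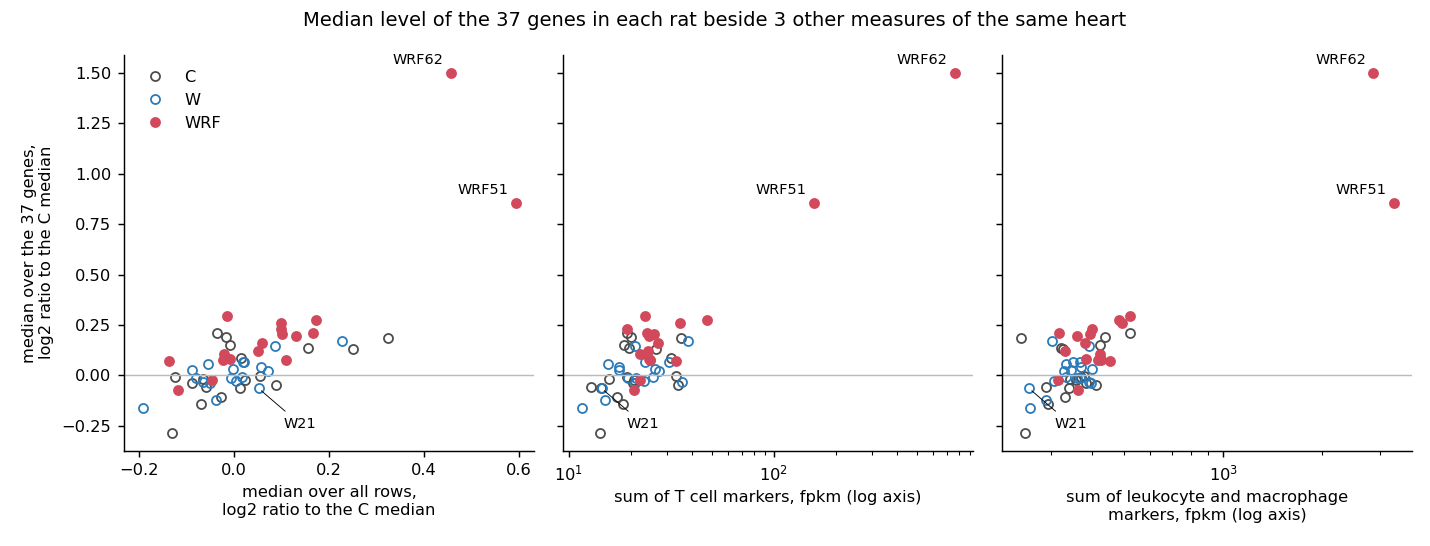
Median over the 37 genes of the log2 ratio to the C median in each rat (vertical axis) against the same median over all rows, the sum of T cell markers and the sum of leukocyte and macrophage markers (horizontal axes, sums in fpkm on a log axis). WRF62 at 1.5 and WRF51 at 0.86 stand apart on all 4 measures, and the other 16 WRF rats, at -0.07 to 0.29, overlap the C and W rats.

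To find which genes responded to work and to the feeding schedule, the 3 groups were compared over all times with the Kruskal-Wallis test and pairwise Mann-Whitney tests. In WRF rats 13 of the 37 genes were higher than in C rats and 0 were lower, against 8.13% of all rows higher and 0.721% lower. They were Mrto4, Nop10, Fbl, Polr1d, Polr1c, Imp3, Nop16, Nhp2, Gar1, Rrp15, Bop1, Rrp9 and Pes1. Their medians were 16.6% to 33.5% above those of C rats, and 15 to 18 of the 18 WRF rats lay above the C median. The ranges of WRF and C rats overlapped for every member. Sizes below are WRF minus C on the log2(fpkm + 1) scale with the standard error from limma, which understates changes of low genes. Over all 37 genes the median size was 0.24, against 0.08 over all rows, and 35 were above 0.

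The number of calls changed with the libraries and series included and with the scaling of the values. Without WRF51, WRF62 and W21 the rank tests called 4 genes higher (Fbl, Mrto4, Nop10 and Polr1d), against 4.71% of all rows, and limma called 8, against 9.28%. WRF libraries also had larger sums of fpkm, with medians of 478799 in the C group, 505910 in the W group and 572371 in the WRF group. After median-of-ratios scaling the rank tests called 4 genes higher (Fbl, Mrto4, Nop16 and Polr1d), against 2.17%, and limma 8, against 5.86%. With both steps the rank tests called 0, against 0.38% of rows, and limma called 6, against 5.86%. In that setting 15 members and 2874 of all rows had an unadjusted Kruskal-Wallis p under 0.05. With every library set to an equal sum of fpkm both tests called 0 members, against 0% of rows by the rank tests and 0.517% by limma. At an unadjusted p under 0.05 there were then 4 and 5 members and 2297 and 3138 of all rows, and the median of all rows shifted to -0.12. The sizes of the 13 genes were above 0 with either scaling and without the 3 libraries, at 0.00 to 0.31 with equal sums. These genes were picked for being high in the same WRF rats, so this is no separate support. Of the 24 members not called, 18 were above 0 after median-of-ratios scaling, 10 with equal sums and 18 without the 3 libraries. The median of the 37 genes exceeded that of all rows by 0.17 as deposited, by 0.16 after median-of-ratios scaling, by 0.15 with equal sums and by 0.10 without the 3 libraries. By limma as deposited, 13 members were higher, 11 of them shared with the rank tests, against 11.3% of all rows.

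**Figure D2:**
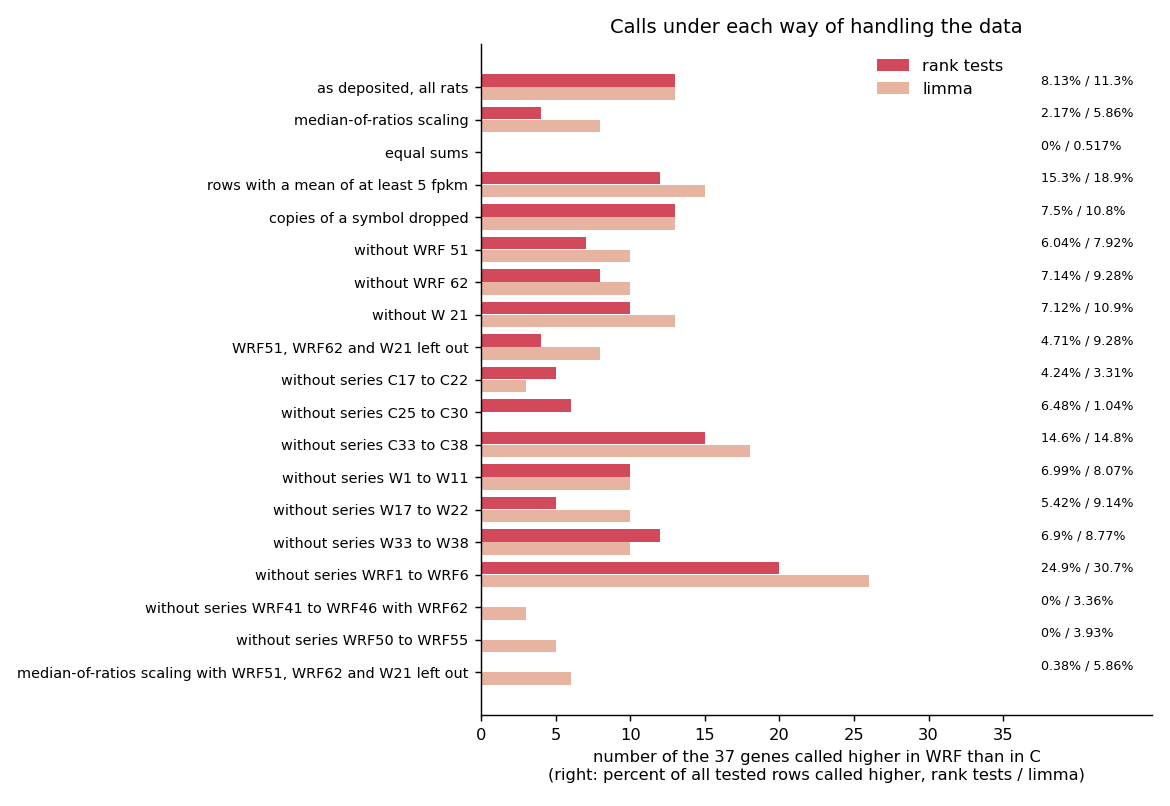
Number of the 37 genes called higher in WRF than in C rats by the rank tests and by limma (bars) under each way of handling the data, with the percent of all rows called higher at the right. The count is 13 by both tests as deposited, 4 and 8 without WRF51, WRF62 and W21, and 0 by both with equal sums.

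By their numbers the rats of each group fell into 3 series of 6, and the labels do not say what a series was. Leaving out WRF41 to WRF46 with WRF62, or WRF50 to WRF55, the rank tests called 0 members and 0 of all rows. An unadjusted Kruskal-Wallis p under 0.05 was then found for 14 and 13 members and for 1490 and 1569 of all rows. By limma 3 and 5 members were called higher, against 3.36% and 3.93% of all rows. Leaving out WRF1 to WRF6 they called 20 and 26 members, the rank tests and limma, against 24.9% and 30.7% of all rows. The members' median in the 3 WRF series was 0.08 (WRF1 to WRF6), 0.27 and 0.16, in the order of the rat numbers. The 3 C series were at -0.01, -0.08 and 0.07. By the rank tests and by limma, 5 and 3 members were called without C17 to C22, against 4.24% and 3.31% of rows. Without C25 to C30 it was 6 and 0, against 6.48% and 1.04%, and without W17 to W22 5 and 10, against 5.42% and 9.14%. Of single libraries, the rank tests called 7 genes without WRF51 (6.04% of rows), 8 without WRF62 (7.14%) and 10 without W21 (7.12%).

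The share of genes called also varied with the level. Among rows with a mean under 5 fpkm 2.04% were called higher in WRF than in C rats, and 1 of 11 members was. Between 5 and 20 fpkm it was 7.18% of rows and 10 of 20 members, and from 20 fpkm on 19.5% of rows and 2 of 6 members.

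RNA polymerase I was represented by 5 genes, of which 2 were higher in WRF than in C rats. Polr1d, a subunit that RNA polymerase I shares with RNA polymerase III, was 9.65 to 23.6 fpkm in C (median 16.5), 12.1 to 21 in W (16.9) and 14.9 to 56.3 in WRF rats (20.8). WRF51 at 56.3 and WRF62 at 48.6 were far above the rest, and the size was 0.47 ± 0.12 (SE; Kruskal-Wallis adjusted p = 0.0170) and 0.32 without the 3 libraries. Polr1c, the partner of Polr1d in both enzymes, was 11.1 to 20.9 fpkm in C (median 15), 13.6 to 18 in W (15.9) and 14.4 to 22.9 in WRF rats (18.4). Its size of 0.25 ± 0.06 (Kruskal-Wallis adjusted p = 0.0246) changed little without the 3 libraries, at 0.23, and 17 of 18 WRF rats exceeded the C median. Without the 3 libraries limma called Polr1c and the rank tests did not. After median-of-ratios scaling its size was 0.16 and neither test called it.

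Of the members, the subunits that belong to RNA polymerase I alone (Polr1a, Polr1b and Polr1e) passed neither the rank tests nor limma. Their C medians were under 5 fpkm, below those of Polr1c and Polr1d. Among rows with a mean under 5 fpkm, 2.04% of rows and 1 of 11 members were called higher. Whether the level had a part in this split was not tested. Polr1a, the largest and catalytic subunit, was 4.04 to 6.01 fpkm in C (median 4.47), 3.55 to 5.47 in W (4.76) and 3.57 to 7.40 in WRF rats (4.21). Only 6 of 18 WRF rats lay above the C median, and the size was -0.03 ± 0.06 (Kruskal-Wallis adjusted p = 0.557). Polr1b, the second catalytic subunit, had medians of 2.07, 2.0 and 2.25 fpkm in C, W and WRF rats. Polr1e, which helps the enzyme start and elongate, was 2.28 to 5.56 fpkm in C (median 3.52), 2.32 to 3.99 in W (3.29) and 2.54 to 8.16 in WRF rats (3.68), with a size of 0.12 ± 0.08 that turned to -0.06 with equal sums. Of the 3 further subunits listed under older symbols (Znrd1, Cd3eap and Twistnb) the rank tests called 0 and limma 1, Cd3eap (size 0.29 ± 0.10, limma adjusted p = 0.0415).

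The other polymerases were read the same way. Of the 5 subunits common to all 3 nuclear RNA polymerases, all in the table, 3 were higher in WRF than in C rats (Polr2h, Polr2k and Polr2e). The share of all rows called higher was 8.13%. Polr2h rose from a median of 4.70 fpkm in C to 6.08 in WRF rats (size 0.35 ± 0.07, Kruskal-Wallis adjusted p = 0.0110) and Polr2k from 59.0 to 75.4 (size 0.35 ± 0.09, Kruskal-Wallis adjusted p = 0.0238). Without the 3 libraries 3 were again called (4.71% of all rows), Polr2h, Polr2k and Polr2f in place of Polr2e. After median-of-ratios scaling 0 were (2.17% of all rows). Of 6 subunits of RNA polymerase II, 4 were higher (Polr2d, Polr2i, Polr2g and Polr2c), and of 9 of RNA polymerase III, 2 were (Polr3d and Polr3k). Without the 3 libraries these counts were 2 and 2, and after median-of-ratios scaling 1 and 0. None of these 20 genes was called lower by the rank tests, and none was called higher with equal sums, where 0% of all rows were.

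Of the 3 box C/D snoRNP proteins, which form the particle that places 2′-O-methyl groups on rRNA, 1 was higher. Fbl, fibrillarin, the methyltransferase itself, was 8.55 to 19.6 fpkm in C (median 13.6), 11.1 to 19 in W (14.2) and 12.0 to 69.4 in WRF rats (18.1). It had the largest size of the 37 genes as deposited, 0.53 ± 0.13 (Kruskal-Wallis adjusted p = 0.0169), and 17 of 18 WRF rats exceeded the C median. WRF62 at 69.4 and WRF51 at 48.5 carried much of it, since the size was 0.34 without the 3 libraries. Nop56 was 10.4 to 16.5 fpkm in C (median 13.7), 10.9 to 16.0 in W (13.4) and 11.7 to 48.5 in WRF rats (14.5). Nop58 was 8.01 to 13.3 fpkm in C (median 10.2), 9.39 to 13.8 in W (10.9) and 9.39 to 44.7 in WRF rats (10.7). These core scaffold proteins of the particle were not called, and their sizes of 0.22 ± 0.10 and 0.24 ± 0.11 fell to 0.08 and 0.09 without the 3 libraries.

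The box H/ACA snoRNP, which converts uridine to pseudouridine and also forms part of telomerase, had 3 of 4 genes called as deposited, 0 after median-of-ratios scaling and 1 without the 3 libraries. Nop10, a small protein of its core, was 43.8 to 92.8 fpkm in C (median 57.3), 45.6 to 71.7 in W (59.7) and 58.6 to 113 in WRF rats (72.3). All 18 WRF rats lay above the C median. The size was 0.33 ± 0.08 (Kruskal-Wallis adjusted p = 0.0110). It did not rest on the 2 hearts that stood apart, where Nop10 was 66.1 (WRF51) and 70.1 fpkm (WRF62), below the WRF median, and the size without them and W21 was 0.35. It was not called after median-of-ratios scaling, at 0.24.

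Nhp2, which binds the guide RNA, was 9.08 to 22.5 fpkm in C (median 13.6), 9.50 to 18.5 in W (14.3) and 11.3 to 37.6 in WRF rats (16.8). Gar1, which helps the particle release its product, was 1.92 to 4.61 fpkm in C (median 3.32), 2.94 to 5.06 in W (3.52) and 2.96 to 14.8 in WRF rats (4.39). WRF62 was the highest for both, and the sizes were 0.39 ± 0.11 and 0.42 ± 0.11 (Kruskal-Wallis adjusted p = 0.0304 and 0.0354), or 0.28 for both without the 3 libraries. Dkc1, dyskerin, the pseudouridine synthase, was 12.4 to 29 fpkm in C (median 21.2), 18 to 30.4 in W (21.1) and 17.5 to 42.9 in WRF rats (23.8), and was not called (size 0.25 ± 0.10, Kruskal-Wallis adjusted p = 0.364).

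**Figure D3:**
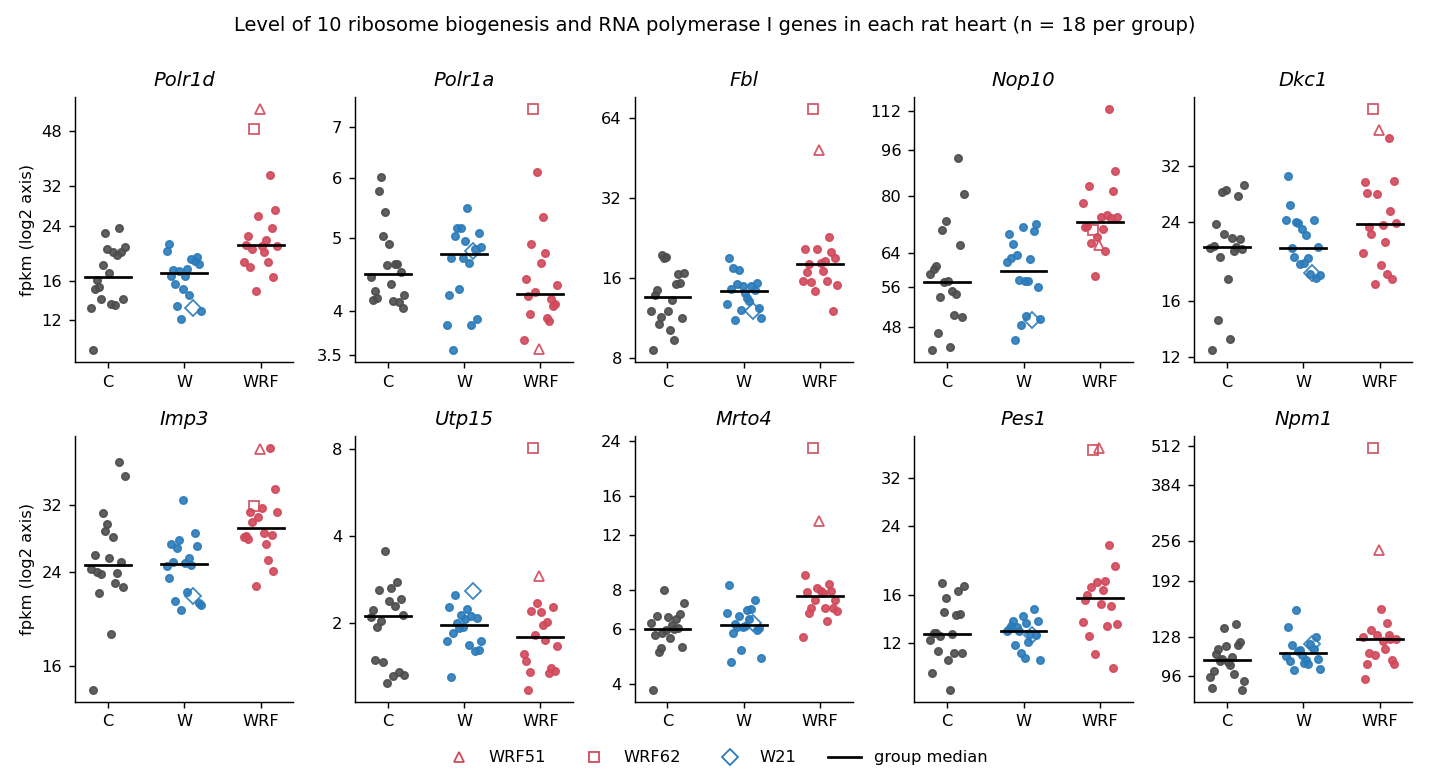
Level of 10 of the genes in each heart (fpkm, log2 axis), by group, with the group median as a bar and the libraries WRF51, WRF62 and W21 as open symbols. Nop10 lay above the C median of 57.3 in all 18 WRF rats with WRF51 and WRF62 inside the range, whereas the highest values of Fbl, Npm1 and Mrto4 were those of WRF62.

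Among 15 genes of small subunit processing 2 were higher in WRF than in C rats, and the median size was 0.18. Imp3, which with Imp4 and Mphosph10 joins the U3 snoRNA to the precursor, was 14.4 to 38.5 fpkm in C (median 24.7), 20.4 to 32.6 in W (24.8) and 22.5 to 40.9 in WRF rats (29). Its size was 0.23 ± 0.08 (Kruskal-Wallis adjusted p = 0.0271, limma adjusted p = 0.0517). Rrp9, a protein of the U3 particle, was 2.88 to 7.65 fpkm in C (median 4.37), 4.19 to 5.73 in W (5.03) and 4.35 to 15.1 in WRF rats (5.75). Its size was 0.28 ± 0.10 (Kruskal-Wallis adjusted p = 0.0448), and 0.17 without the 3 libraries.

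Imp4 was the only member that the rank tests called between W and C rats. It was 18.5 to 24 fpkm in C (median 21.4), 16.3 to 24 in W (19.5) and 19.8 to 26.4 in WRF rats (21.7). The difference of W from C was -0.12 ± 0.04 (Mann-Whitney p = 0.0075, Kruskal-Wallis adjusted p = 0.0239), and limma did not call it (adjusted p = 1.0). Utp15 and Utp20, proteins of the small subunit processome, had sizes near 0. Utp15 was 1.24 to 3.55 fpkm in C (median 2.12), 1.31 to 2.59 in W (1.97) and 1.18 to 8.04 in WRF rats (1.79), with 6 of 18 WRF rats above the C median. Utp20, a large scaffold protein, also had 6 of 18 above it. Their sizes were -0.02 ± 0.11 and 0.01 ± 0.10, and -0.15 and -0.12 without the 3 libraries. Utp11 passed only by limma, with a size of 0.27 ± 0.09 (limma adjusted p = 0.0457). The others (Utp3, Utp4, Utp14a, Utp18, Utp23, Nop9, Nop14, Rrp7a and Mphosph10) had sizes of 0.06 to 0.33 and were not called.

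Among 8 genes of large subunit processing 5 were higher, Mrto4, Nop16, Rrp15, Bop1 and Pes1. Mrto4, which holds the place of the stalk protein on the maturing subunit, had the smallest Kruskal-Wallis p of the 37 genes. It was 3.84 to 7.99 fpkm in C (median 6.02), 4.72 to 8.33 in W (6.18) and 5.67 to 22.8 in WRF rats (7.64), and 17 of 18 WRF rats were above the C median. The size was 0.39 ± 0.09 (Kruskal-Wallis adjusted p = 0.0110), and 0.26 without the 3 libraries, where it was still called. Nop16 was 12.0 to 22.2 fpkm in C (median 17.3), 13.3 to 22.9 in W (17.2) and 15.1 to 37.3 in WRF rats (20.6), with a size of 0.30 ± 0.08 (Kruskal-Wallis adjusted p = 0.0287). Rrp15 was 8.24 to 16.9 fpkm in C (median 10.6), 8.60 to 13.5 in W (11.4) and 10.1 to 22.9 in WRF rats (12.8), with a size of 0.26 ± 0.08 (Kruskal-Wallis adjusted p = 0.0429).

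Pes1 and Bop1 are partners in a complex needed to process the precursor of 28S rRNA. Pes1 reached 38.2 fpkm in WRF51 and 37.8 in WRF62, against at most 17.2 in C rats, and Bop1 reached 17.9 in WRF62, against at most 6.80. Their sizes were 0.35 ± 0.10 and 0.24 ± 0.09, and 0.20 and 0.12 without the 3 libraries, where neither was called. Rrp8, a methyltransferase of 28S rRNA, was 1.07 to 2.56 fpkm in C (median 1.56), 1.04 to 1.90 in W (1.48) and 0.802 to 6.90 in WRF rats (1.6). It had the largest Kruskal-Wallis p of the 37 genes, and its size of 0.07 ± 0.10 turned to -0.06 without the 3 libraries. Rrp1 and Nop2 were not called by the rank tests, and limma called Rrp1 (size 0.29 ± 0.10, limma adjusted p = 0.0479).

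Nucleophosmin and nucleolin, the abundant nucleolar chaperones that act in assembly and export, were the highest members. Npm1 was 87.2 to 140 fpkm in C (median 108), 101 to 155 in W (114) and 94.1 to 503 in WRF rats (126). Ncl was 56.4 to 86.1 fpkm in C (median 64.3), 55.2 to 80.0 in W (67.8) and 61.7 to 208 in WRF rats (72.4). WRF62 held both maxima, 15 of 18 WRF rats lay above the C median for both, and neither was called (Kruskal-Wallis adjusted p = 0.0944 and 0.0817). Npm1 has 20 pseudogenes named after it in the RefSeq gene table. In all, 15 of the 37 genes have at least 1, among them Fbl (7), Mrto4 (6), Pes1 (6), Nhp2 (5) and Nop16 (4), so reads of these could be placed on a copy. Of these 15 genes 7 were called higher, and of the other 22 genes 6.

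**Figure D4:**
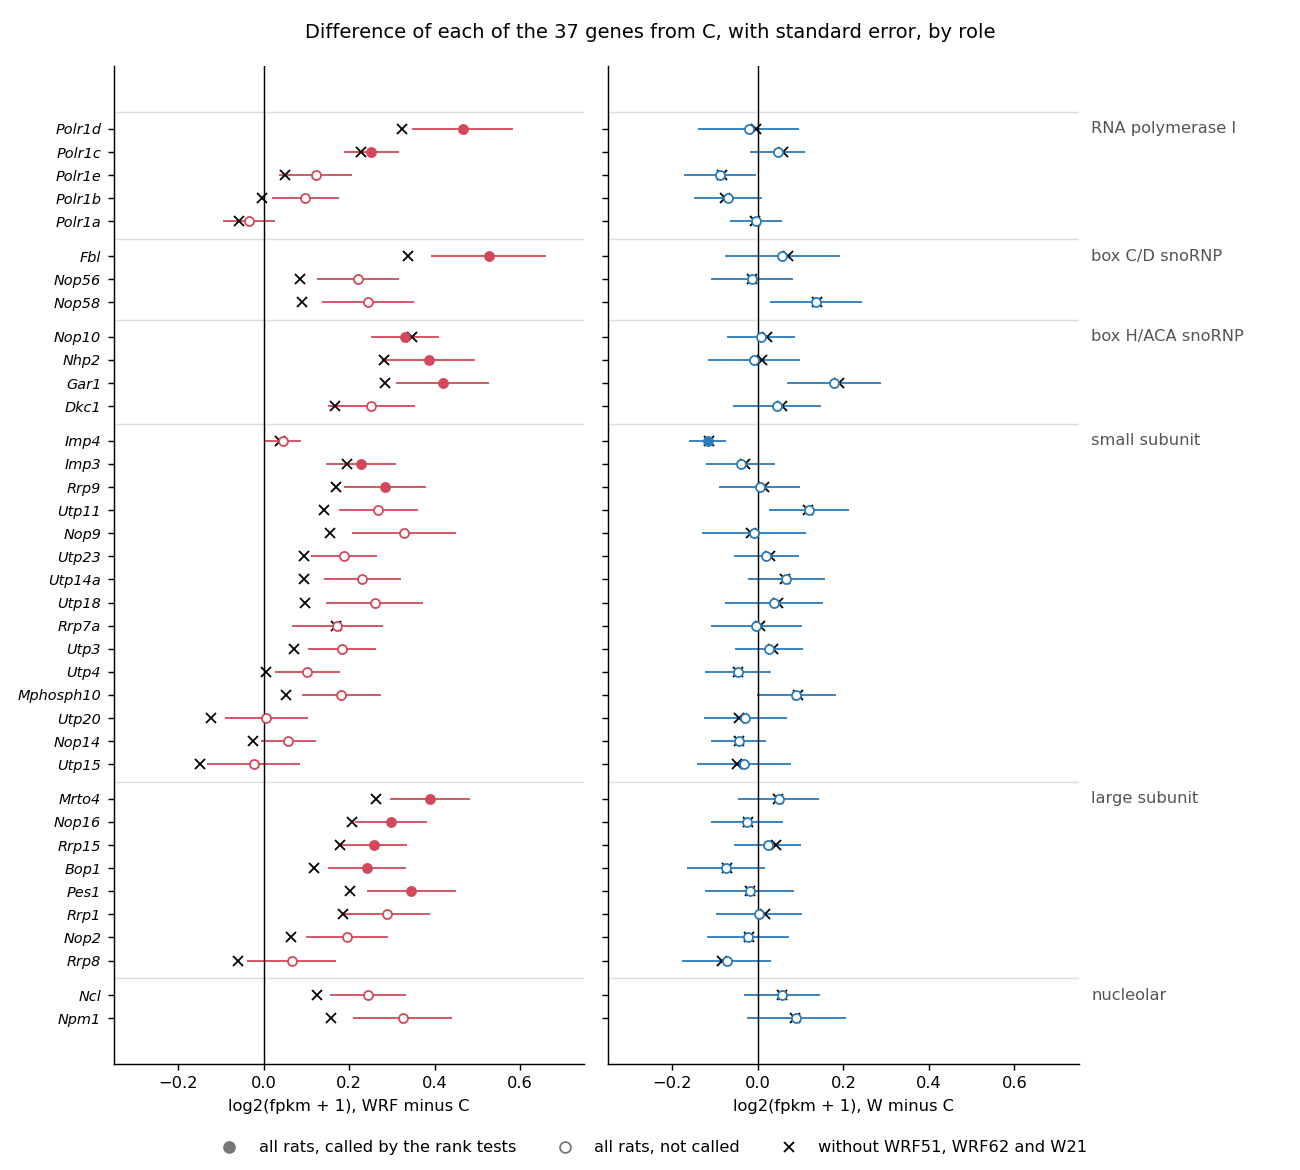
Difference from C rats of each gene on the log2(fpkm + 1) scale, grouped by role, for WRF (left) and W rats (right). Circles show all rats with the standard error, filled where the rank tests called the gene, and crosses the value without WRF51, WRF62 and W21. WRF sizes ran from -0.03 (Polr1a) to 0.53 (Fbl), and W sizes from -0.12 (Imp4) to 0.18 (Gar1).

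Few of these genes differed between W and C rats. Between W and C rats 0 members were higher and 1 was lower by the rank tests, against 0.234% and 0.195% of all rows, and limma called 0 members and 0 of all rows, with 0.916% of rows at an unadjusted p under 0.05. The sizes of W minus C ran from -0.12 to 0.18 with a median of -0.00, and 18 of 37 were above 0. Between WRF and W rats 14 members were higher and 0 lower, against 8.26% and 0.692% of all rows. These were the 13 above and Imp4, in which W rats were low. This comparison shares its WRF rats with that of WRF and C rats. The sizes of WRF minus W ran from -0.03 to 0.49, with a median of 0.21. Without the 3 libraries 5 members were called, against 4.65% of rows.

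Other genes of the pathway were taken from lists of biogenesis factors, initiation factors and regulators of ribosomal DNA transcription. Of 148 genes listed 124 were in the table, and 11 were higher in WRF than in C rats and 0 lower, against 8.13% and 0.721% of all rows. The median size was 0.15, against 0.24 in the 37 genes and 0.08 over all rows. All 11 were processing or assembly factors. Rpf2, which brings the 5S rRNA into the large subunit, rose from a median of 6.65 fpkm in C to 8.55 in WRF rats, with 18 of 18 above the C median (size 0.38 ± 0.08, Kruskal-Wallis adjusted p = 0.00981). Dcaf13, a protein of the small subunit processome, rose from 12.2 to 14.6 fpkm, and Ebna1bp2, a large subunit assembly factor, from 9.86 to 11.9 fpkm. The others were Nip7, Fcf1, Wdr74, Mphosph6, Exosc5, Pih1d1, Ddx49 and Rcl1. Without the 3 libraries 6 genes of the lists were called higher, against 4.71% of all rows, so that both counts of the rank tests lay near the background. By limma with all rats 21 were higher, against 11.3% of all rows, and 1 was lower.

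Of 14 factors that start transcription by RNA polymerase I or signal to it, the rank tests called 0, against 8.13% of all rows, a difference too small to read in 14 genes. Ubtf, which packs active ribosomal DNA, had medians of 15.1, 14.1 and 15.7 fpkm in C, W and WRF rats, and Rrn3, which recruits the polymerase, 11.4, 11.5 and 11.9. Myc, a known activator of ribosome biogenesis genes, was 0.803 to 2.05 fpkm in C and 0.826 to 19.4 in WRF rats (medians 1.28 and 1.57). Mtor, the growth kinase upstream of Rrn3, had medians of 6.22, 5.68 and 5.05 fpkm, and 1 of 18 WRF rats exceeded the C median. Its size was -0.23 ± 0.07, not called by the rank tests (Kruskal-Wallis adjusted p = 0.0719), called by limma (adjusted p = 0.0255) and called lower after median-of-ratios scaling.

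The products of this pathway were looked at last. Of 69 cytosolic ribosomal protein genes 62 were higher in the WRF group than in the C group (median size 0.47), against 8.13% of all rows. Their number fell to 28 after median-of-ratios scaling (2.17% of all rows) and to 26 without the 3 libraries (4.71%). It was 0 with both steps (0.38% of all rows) and 0 with equal sums (0%). This list was added after results had been seen.

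To see whether the genes varied over the day, a 24 h harmonic was fitted in each group. At q under 0.05, 0 of the 37 genes were rhythmic in C, W or WRF rats, against 0.848%, 0% and 0.039% of all rows. Without adjustment, p fell under 0.05 for 2 genes in the C group, 1 in the W group and 0 in the WRF group, against 5.91%, 3.05% and 6.35% of rows. In C rats these were Nop56 (F test p = 0.0368, fitted peak at ZT12.3) and Polr1a (p = 0.0420, peak at ZT7.4). Polr1a had 3 C rats at 4.17, 5.76 and 6.01 fpkm at ZT5 and at 4.04, 4.2 and 4.51 at ZT21. Rrp8 was next (p = 0.110). In W rats Utp18 had the smallest p (0.0130, peak at ZT3.8), with 2.15, 2.30 and 2.61 fpkm at ZT5 and 1.37, 1.63 and 1.86 at ZT13, followed by Bop1 (p = 0.0501) and Utp11 (p = 0.0538).

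In WRF rats the smallest p were those of Nop10 (0.0640, peak at ZT19.8), Utp18 (0.124) and Utp14a (0.145). Nop10 was 58.6, 66.1 and 68.2 fpkm at ZT9 and 73.8, 81.8 and 88.4 at ZT21. The fitted peaks of 28 of the 37 genes in WRF rats fell between ZT5 and ZT9, against 5 in C and 12 in W rats. By their titles these are the times of WRF62 and WRF51, whereas the other labels give ZT1 and ZT5. WRF62 was the highest WRF rat in 28 genes and WRF51 in 6. In Utp14a, for example, the WRF rats were at 3.41, 4.79 and 13.1 fpkm at ZT5 and at 4.17, 4.72 and 8.77 at ZT9, the highest being WRF62 and WRF51. No difference in rhythm between WRF and C rats passed the test (0 members and 0% of rows called, 1 member, Utp14a, at an unadjusted p of 0.0212, against 5.76% of rows).

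The difference from C rats was also read at each time. With all rats the median over the 37 genes of WRF over C on the log2 scale was 0.20, 0.61, 0.26, 0.27, 0.12 and 0.01 over the 6 times from ZT1 to ZT21. Without WRF62 it was 0.18 at ZT5, and without WRF51 it was -0.05 at ZT9. The same median over all rows was 0.09, 0.17, 0.16, 0.17, 0.02 and -0.10, so with all rats the members were above it at every time. Without the 3 libraries it was -0.01 at ZT5 and -0.05 at ZT9. At ZT9 the members were then no higher than all rows, with 14 of the 37 above 0. W over C was 0.19, 0.11, -0.13, 0.07, -0.06 and -0.14. With 3 rats per group these are values with no test of their own. In limma, 0 members and 0% of rows passed the test for an unequal difference of WRF from C in the light and dark hours. Utp14a was the only member at an unadjusted p under 0.05 (p = 0.0221, against 1.4% of rows), with 0.44 in the light and 0.03 in the dark hours, and the number of such members was 0 without the 3 libraries, 2 after median-of-ratios scaling and 3 with the times of the other labels, which differ for 12 WRF rats.

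**Figure D5:**
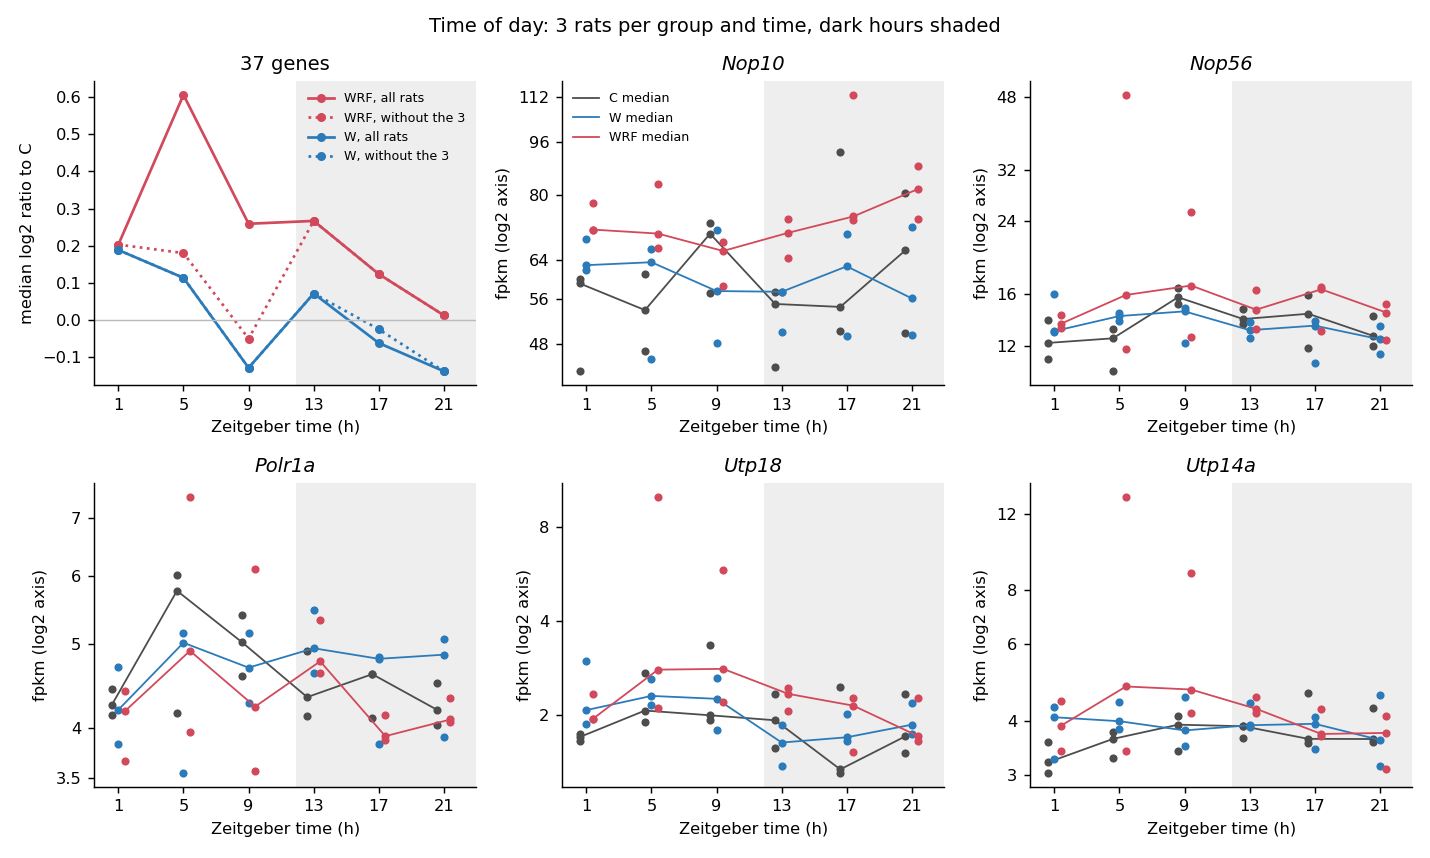
Values by time of day. The first panel shows the median over the 37 genes of the log2 ratio of mean levels (fpkm + 1) to C rats for WRF and W rats, with all rats (solid) and without WRF51, WRF62 and W21 (dotted), and the other panels show single rats and the middle rat of 3 in 5 genes (fpkm, log2 axis). The WRF value of 0.61 at ZT5 falls to 0.18 without WRF62.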

How the data were processed

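Heart RNA of 54 rats was read from the deposited FPKM table, which the authors made from directional polyA libraries aligned to rn6 with TopHat2 and quantified with Cufflinks, keeping genes above 1 fpkm in at least 18 rats; versions and annotation are not given in the sources used here. FPKM values hold no counts, so depth is unknown and no counting interval is given. Nothing was rescaled unless stated. Group and time came from the titles, which for 12 WRF rats give another time than the other labels.

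The 3 groups were compared by Kruskal-Wallis tests (Benjamini-Hochberg adjusted p over all rows of at most 0.05), then by 2-sided Mann-Whitney tests (p under 0.05; scipy 1.17.1). Sizes were fitted on log2(fpkm + 1) in limma 3.58.1 under R 4.3.3, and rhythms from 24 h harmonic regression (F test, q under 0.05). Scripts were tested on simulated data. Members and lists were chosen with earlier results of these data known, and the ribosomal protein list was added after seeing them. Full values are given for up to 3 members per class with the smallest p and the one with the largest, and for the 3 smallest rhythm p per group; Pes1, Bop1, Utp11, Utp20 and Rrp1 were named beyond this. Of the pathway and polymerase lists, up to 3 genes per direction with the smallest p were named, and the remaining called genes, Ubtf, Rrn3, Myc and Mtor by symbol beyond this. Rat numbers shared by C and W rats (12) did not pair them: correlations of deviations were -0.08 to 0.57, 6 over 0.1.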

Additional observations from a re-analysis of the deposited data

How the results depend on the processing

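Calls of higher genes in WRF rats changed most with the processing, and the cause was not tested. After median-of-ratios scaling 4 members were higher in WRF than in C rats, 4 were higher than in W rats and 0 were lower in W than in C rats. The pathway lists then gave 5 higher and 1 lower against C and 5 higher against W rats. With equal sums all of these counts of higher genes, and that of members lower in W rats, were 0, and the members' median size was 0.030. With WRF51, WRF62 and W21 left out, 4 and 5 members and 6 and 6 genes of the lists were higher than in C and W rats. With both steps these were 0 and 0 members and 1 and 1 genes, and 0 members were lower in W rats. Among rows with a mean of at least 5 fpkm, 20 genes of the lists were higher than in C and 20 higher than in W rats. Of all these rows 15.3% were higher than in C rats, against 8.13% of all rows of the full set. By limma 21 genes of the lists were higher than in C rats, against 11.3% of all rows, and 1 was lower. Against W rats 25 were higher, where limma called 1463 of all rows in either direction. It called 0 members lower in W than in C rats.

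Leaving out single libraries or series gave 0 to 20 members higher in WRF than in C rats, 0 to 21 higher than in W rats, and 0 to 2 higher and 0 to 1 lower in W than in C rats. For the lists it gave 0 to 49 higher and 0 to 4 lower than in C and 0 to 50 higher than in W rats. Over the same settings 0% to 24.9% of all rows were higher in WRF than in C rats. The 20, 21, 49 and 50 came without WRF1 to WRF6, where the share of all rows was 24.9%. The 4 lower came without C33 to C38, where 1151 of all rows were lower in WRF than in C rats. With the rat number as a replicate block, limma called 0 members lower in W than in C and 0 higher in WRF than in W rats. It called 0 and 0 in the same rats without the block. W and WRF rats shared only 3 numbers, all from the series WRF1 to WRF6. That comparison, with 3 rats per group, is too small to bear on the calls between all WRF and W rats. In the check of C and W rats, 1 rat correlated best with its own number. Of the 37 sizes, 35 were above 0 as deposited, 31 after median-of-ratios scaling, 23 with equal sums and 31 without the 3 libraries. Among the genes given in full, the sign changed for Imp4 (-0.047 after median-of-ratios scaling, -0.18 with equal sums), Polr1e (-0.059 with equal sums) and Rrp8 (-0.0014 and -0.077 under these, -0.024 without WRF62, -0.060 without the 3 libraries, and 0.066 without W21 alone). The 13 called genes were picked in these same rats. Their sizes were above 0 with either scaling and without the 3 libraries together, the lowest being Imp3 with equal sums. Counts of rhythmic members were 0 under every alternative run. FPKM values hold no depth, so low genes could not be given a counting error.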
